A study of Mus musculus with 9 samples.

Results

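Cell cycle genes are described here across 9 RNA-seq libraries of mouse N2a cells. The members are the genes whose pathway annotation in the deposited table holds the entry Cell cycle, with the 2 genes named Hdac left out. This gives 121 of the 21899 genes listed, sorted by name into 12 roles. Neuro-2a is a mouse neuroblastoma line, labelled as brain tissue and neuroblast, with no treatment in any group. Such cells divide without limit in culture and can take on features of neurons. Hairpins were carried by lentivirus: shlucif, the control, has the genotype luciferase knockdown, and shArf1-1 and shArf1-2 have Arf1 knockdown; Arf1 is a gene whose product is a small GTPase of the Golgi. Each group has 3 libraries, and the 6 libraries with a hairpin against Arf1 are called Arf1-deficient. Each library held 11182479 to 15594615 counts, and 115 members passed the filter on low counts.

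The cell cycle runs on cyclin-dependent kinases, which need a cyclin to be active and are held back by CDK inhibitors. D type cyclins start the phosphorylation of the RB protein, which releases E2F factors, and these switch on genes for DNA replication, among them the Mcm helicase and Pcna. Origins are marked by the Orc complex and loaded with Mcm before S phase, and the mitotic checkpoint later holds back the anaphase promoting complex until all chromosomes are attached to the spindle.

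Arf1 itself was at 328, 316 and 328 FPKM with shlucif, 130.3, 128 and 127 with shArf1-1 and 166, 157 and 171 with shArf1-2. All Arf1-deficient libraries lay below all shlucif libraries, and those with shArf1-1 lay below those with shArf1-2. The quasi-likelihood F test of edgeR, adjusted by Benjamini-Hochberg over all 12448 tested genes, gave Arf1 a log2 fold change of -1.21 ± 0.09 (adjusted p = 6.05e-08). It was -1.39 with shArf1-1 and -1.05 with shArf1-2, and these differed by 0.34 (edgeR adjusted p = 1.16e-05). Each hairpin is 1 sequence, so the remaining Arf1 level and the hairpin itself cannot be told apart as sources of a difference between them. Counts scaled to library totals give the FPKM values, while the tests use TMM factors, which were 0.962, 0.983 and 0.969 with shlucif and 1.005 to 1.032 in the Arf1-deficient libraries.

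Markers of neuroblastoma and neurons were present in every library. Summed over 11 genes they reached 731, 704 and 696 FPKM with shlucif, 1215, 1265 and 1089 with shArf1-1 and 1177, 1124 and 1212 with shArf1-2. Of these genes 9 or 10 were detected, Tubb3 was the most abundant, and Nefm was at 0 in all 9 libraries. A list of 15 macrophage and microglia genes summed to 237, 211 and 197 FPKM with shlucif, against 0.701, 0.693 and 0.867 with shArf1-1 and 0.849, 1.101 and 1.17 with shArf1-2. With shlucif, 14 or 15 of the 15 were detected and Lyz2 was the most abundant at 68.2, 62.7 and 60.1 FPKM. In the Arf1-deficient libraries 4 to 8 were detected, and Ctss, Aif1, Itgam, C1qa, C1qb and C1qc were at 0 in all of them. So the shlucif libraries hold RNA of genes that mark cells other than neuroblasts, and the part of this list in any comparison with shlucif was not tested. Between shArf1-1 and shArf1-2 the list was near 0 in all 6 libraries. A list of 6 fibroblast genes summed to 1.74 to 1.99 FPKM with shlucif and 1.05 to 1.502 in the Arf1-deficient libraries, with Col1a1 or Pdgfra the most abundant and Col3a1 at 0 throughout.

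More members were higher than lower when Arf1 was lowered. Of the 115 tested, 47 rose (40.9%; 31.6% of all tested genes), 25 fell (21.7%; 32.9% of all) and 43 did not pass the test. Their median log2 fold change was 0.11, against 0.00 over all tested genes. With shArf1-1, 52 members rose (45.2%; 33.1% of all) and 28 fell (24.3%; 34.4% of all). With shArf1-2, 44 rose (38.3%; 30.9% of all) and 33 fell (28.7%; 32.6% of all). Both comparisons share the shlucif libraries. Under library size scaling 58 members rose in the pooled comparison and 23 fell, beside 36.6% and 29.1% of all tested genes. DESeq2 and upper quartile scaling called 30.7% and 30.9% of all genes higher and 33.4% lower. The FPKM of every Arf1-deficient library lay above that of every shlucif library for 51 tested members (32.5% of all tested genes) and below it for 23 (26.7% of all). A change of 1 log2 unit or more was reached by 2 members that rose, Mad1l1 and Stag1, and by 4 that fell, Ccnd2, Cdk6, Tgfb1 and Smad3. The share of all tested genes past this limit is not given here. Ccnd2 and Cdk6 are tested only because of their shlucif counts and drop out when every library must hold 10 counts. Under that filter 46 of 112 members rose and 24 fell, beside 32.6% and 32.1% of all tested genes. The members held 1.43, 1.44 and 1.42% of all counts with shlucif, 1.63, 1.61 and 1.64% with shArf1-1 and 1.57, 1.54 and 1.55% with shArf1-2. These are bulk samples, so fewer cells in a phase of the cycle and less RNA per cell cannot be told apart. The p-values measure the spread between these libraries alone, which may be technical, since the labels do not say that replicates are separate cultures. Only 2 hairpin sequences against Arf1 and 1 control hairpin stand behind the pooled p-values.

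**Figure D1:**
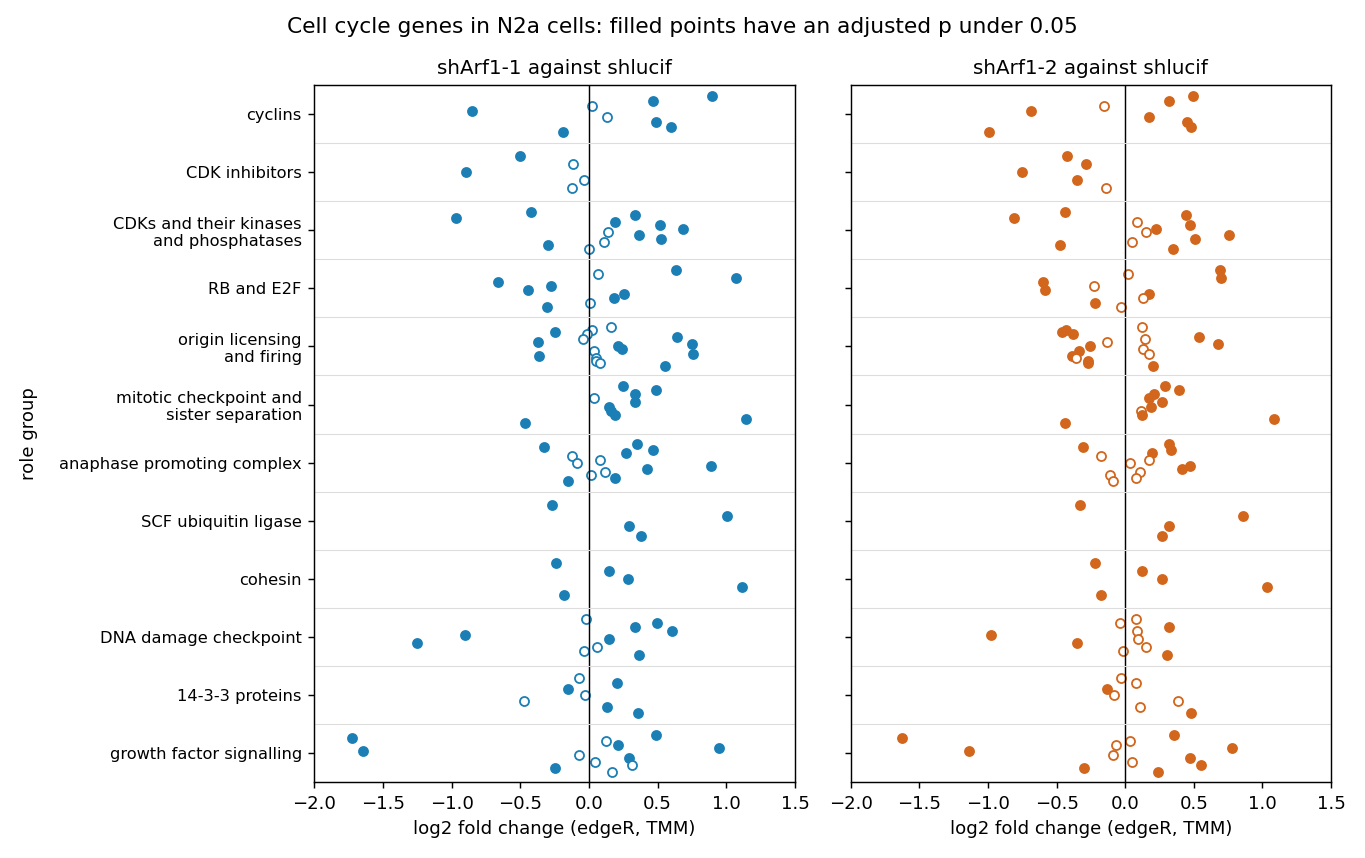
Log2 fold change of each tested cell cycle gene with shArf1-1 (left) and shArf1-2 (right) against shlucif, sorted by role, with filled points for an edgeR adjusted p under 0.05. Ccnd2 and Cdk6 are left out because their Arf1-deficient counts are at or near 0.

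Of 9 tested cyclins, 5 rose (55.6%; 31.6% of all tested genes), 2 fell (22.2%; 32.9% of all) and 2 did not pass, with a median log2 fold change of 0.15. Among the falls is Ccnd2, tested because of its shlucif counts alone. DESeq2 and upper quartile scaling gave 4 and 2 (30.7% and 30.9% of all higher, 33.4% lower in both). Cyclins of the D type, which act in G1, were lower with each hairpin, while Ccne2, Ccna2, Ccnb1 and Ccnb2, which act from the start of S phase to mitosis, were higher in Arf1-deficient cells. Ccnd1, the most abundant D type cyclin per length, was at 71.4, 68.7 and 67.5 FPKM with shlucif, 61.9, 67.0 and 60.4 with shArf1-1 and 35.4, 37.4 and 37.0 with shArf1-2. The shArf1-2 libraries were about level with one another and far below both other groups, and the shArf1-1 libraries lay just below shlucif. Ccnd1 fell with shArf1-2 (log2 fold change -0.99 ± 0.05, edgeR adjusted p = 5.39e-18) and, by much less, with shArf1-1 (log2 fold change -0.19 ± 0.05, edgeR adjusted p = 0.00171). The difference between hairpins passed its own test (-0.80, adjusted p = 3.34e-13 in edgeR). With the hairpins pooled, their spread gave -0.54 ± 0.25 and an edgeR adjusted p of 0.102. The average of the hairpin contrasts gave -0.59 with an edgeR adjusted p of 3.76e-14. That p rests on the spread within groups and leaves out the difference between the hairpins.

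Ccnd3, which also partners Cdk4 and Cdk6, was at 9.57, 9.51 and 9.03 FPKM with shlucif, 5.75, 5.44 and 5.03 with shArf1-1 and 6.08, 6.31 and 6.01 with shArf1-2. With each hairpin all libraries lay below all shlucif libraries (log2 fold change -0.76 ± 0.07, edgeR adjusted p = 1.63e-08). Its exons overlap those of Bysl on the opposite strand. Ccnd2 was scarce: 62, 78 and 72 counts with shlucif, 0, 0 and 0 with shArf1-1 and 3, 0 and 5 with shArf1-2. The summed counts, 212 against 8, make it 53.0-fold lower in Arf1-deficient cells (95% counting interval 26.4 to 124), and at least 22.3-fold lower with shArf1-1, taking 3 counts in each of its libraries. Such intervals and floors cover counting error alone. The macrophage and microglia genes above were likewise counted almost only with shlucif, and their part in the Ccnd2 counts was not tested.

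Ccna2, the cyclin of S phase and G2, was at 44.6, 46.2 and 46.4 FPKM with shlucif, 67.4, 64.3 and 65.5 with shArf1-1 and 61.7, 56.4 and 62.0 with shArf1-2. Every Arf1-deficient library lay above every shlucif library (log2 fold change 0.40 ± 0.06, edgeR adjusted p = 8.34e-06). Ccnb1, which drives entry into mitosis with Cdk1, was at 75.8, 73.4 and 68.9 FPKM with shlucif, 117, 111 and 115 with shArf1-1 and 109, 104 and 107 with shArf1-2. Here too the groups did not overlap, and the shArf1-1 values were the highest (log2 fold change 0.54 ± 0.05, edgeR adjusted p = 6.31e-08). Of its 50-mers, 23.4% also occur in other genes, chiefly the pseudogene Gm12856, so its level is uncertain. Ccnb2, a related mitotic cyclin, rose by little (log2 fold change 0.15 ± 0.06, edgeR adjusted p = 0.0407), and its edgeR adjusted p was 0.0812 and 0.183 without shlucif replicate 1 or 2, 0.0548 and 0.0634 without shArf1-1 replicate 1 or 2, and 0.0914 without shArf1-2 replicate 1. DESeq2 gave 0.0571.

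Ccne2, which acts with Cdk2 at the start of S phase, was at 8.55, 9.96 and 12.01 FPKM with shlucif, 20.8, 14.6 and 23.1 with shArf1-1 and 14.8, 14.7 and 15.8 with shArf1-2. Arf1-deficient and shlucif libraries did not overlap (log2 fold change 0.71 ± 0.19, edgeR adjusted p = 0.00778). Its relative Ccne1 did not pass (log2 fold change -0.06 ± 0.08, edgeR adjusted p = 0.505). Ccnh, a subunit of the kinase that activates other cyclin-dependent kinases, rose in both hairpin groups (log2 fold change 0.47 ± 0.07, edgeR adjusted p = 8.06e-06). Exons of Ccna2, Ccnd1, Ccne2 and Ccnh overlap exons of Exosc9, LTO1, Ints8 and Rasa1 on the opposite strand, and those of Ccnd2 overlap 9330179D12Rik and Gm43126. The same holds among the genes below for Anapc13 (Cep63), Cdc23 (Kif20a), Cdk2 (Pmel), Rb1 (Lpar6 and Rcbtb2), Cdk4 (Tspan31), Cdc25b (Spef1), Cdc45 (Ufd1), Pkmyt1 (Paqr4), Zbtb17 (Spen), Orc4 (Acvr2a and Mbd5), Rbl2 (Aktip and Gm45464), and for Cdk6, Gadd45a, Cdkn1a, Cdc14a, Cdc25c, Orc1, Plk1 and Stag2 with 1 gene each. The strand used in counting is not stated, so reads of such partners cannot be told apart.

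**Figure D2:**
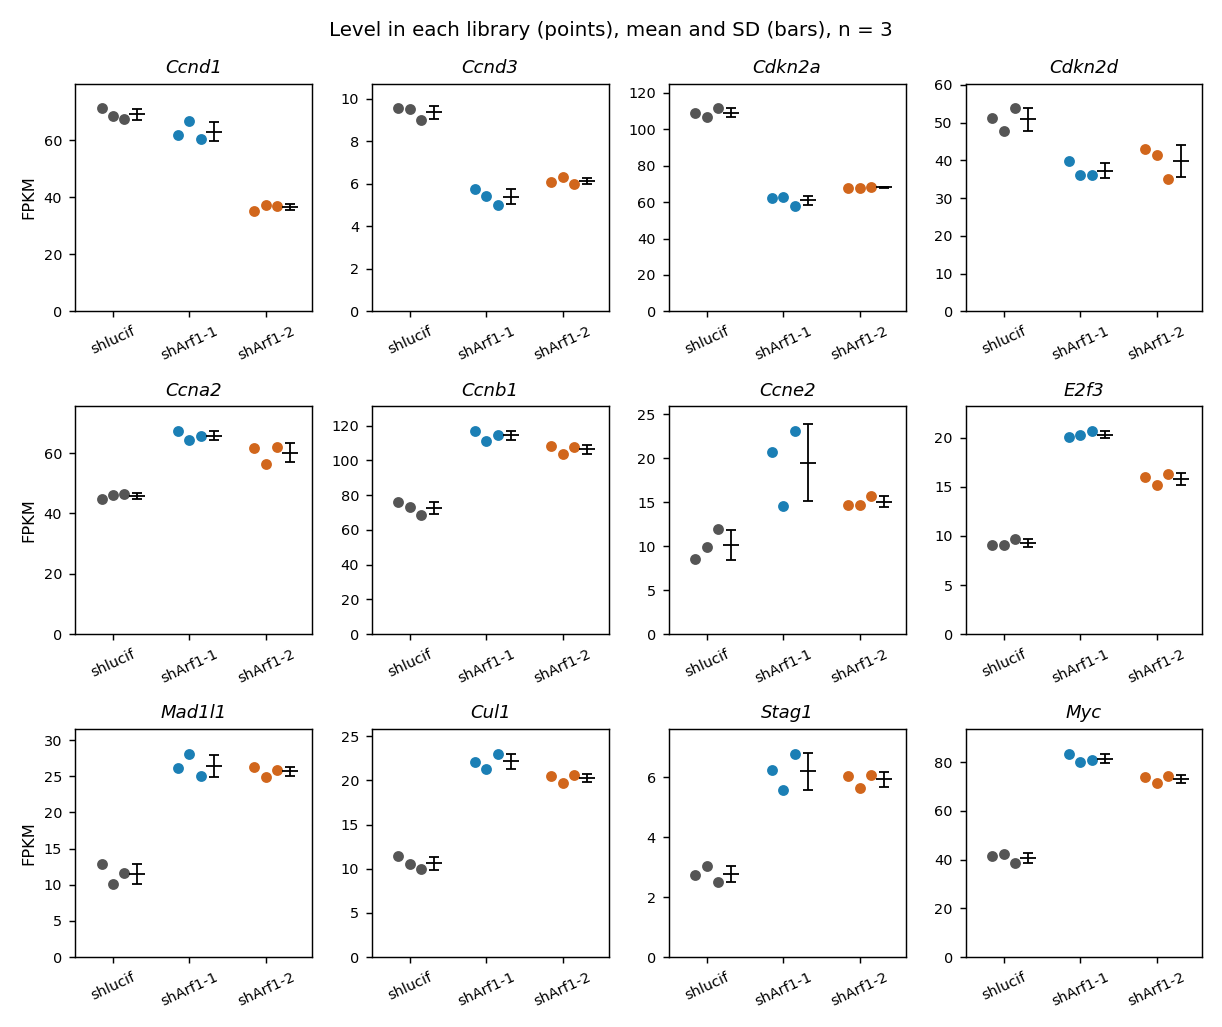
FPKM in each of the 9 libraries for 12 cell cycle genes, by hairpin group. Each point is 1 library, and bars give the mean and SD.

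Of 5 tested CDK inhibitors, 3 fell (60.0%; 32.9% of all tested genes) and 2 did not pass, and all 5 had negative log2 fold changes under every scaling tried. With shArf1-1, 2 fell (40.0%, against 34.4% of all), and with shArf1-2, 4 fell (80.0%, against 32.6% of all). DESeq2 and upper quartile scaling gave 3 with shArf1-1 (34.1% and 35.5% of all). Cdkn2a encodes both the Cdk4 inhibitor p16Ink4a and p19Arf, a regulator of Mdm2 that shares part of its name with Arf1 but no kinship. It was at 109, 107 and 112 FPKM with shlucif, 62.4, 62.8 and 58.2 with shArf1-1 and 68.0, 67.9 and 68.3 with shArf1-2. Levels in all Arf1-deficient libraries lay far below those with shlucif, and shArf1-1 values were slightly the lower (log2 fold change -0.82 ± 0.06, edgeR adjusted p = 6.67e-10). The counts are per gene and do not separate the p16Ink4a and p19Arf transcripts. Cdkn2d (p19Ink4d), another inhibitor of Cdk4 and Cdk6, fell as well (log2 fold change -0.46 ± 0.07, edgeR adjusted p = 1.68e-05), every Arf1-deficient library being below shlucif. Cdkn1a (p21), a p53 target that blocks Cdk2, fell by less (log2 fold change -0.20 ± 0.06, edgeR adjusted p = 0.00645), with overlapping libraries. Its log2 fold change was -0.12 with shArf1-1 and -0.28 with shArf1-2. Cdkn1b (p27) did not pass (log2 fold change -0.13 ± 0.07, edgeR adjusted p = 0.109). Nor did Cdkn2c (p18Ink4c) in the pooled comparison (log2 fold change -0.19 ± 0.11, edgeR adjusted p = 0.138), although it fell with shArf1-2 (-0.35, adjusted p = 0.00287 in edgeR). The hairpins differed in Cdkn2c by -0.31 (adjusted p = 0.0311), but not without shArf1-1 replicate 1 or 2 (edgeR adjusted p = 0.112 and 0.0601) or shArf1-2 replicate 1 or 3 (0.0545 and 0.166). With shArf1-1, limma on FPKM and library size scaling make 1 of the 5 values positive.

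Cdkn1c and Cdkn2b had too few counts to be tested. Cdkn2b, which lies beside Cdkn2a on chromosome 4 (chr4:89306299-89311039, minus strand; Cdkn2a is at chr4:89274471-89294653, minus strand), had 9, 11 and 9 counts with shlucif, 0, 0 and 1 with shArf1-1 and 8, 8 and 0 with shArf1-2. The shArf1-1 libraries were at or near 0. With shArf1-2 the counts, 1 of them 0, were close to or below those with shlucif, and numbers this small were not tested. Also untested were Smc1b, Ccnb3, and Ccna1 and Wee2, which are germ cell genes and were at 0 in all 9 libraries.

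Among cyclin-dependent kinases and the enzymes that switch them, 6 of 13 tested rose (46.2%; 31.6% of all tested genes), 4 fell (30.8%; 32.9% of all) and 3 did not pass; library size scaling gave 9 and 4 (36.6% and 29.1% of all). The 4 include Cdk6, tested because of its shlucif counts alone. Cdk6, a G1 kinase that binds D type cyclins, had 42, 43 and 30 counts with shlucif, 0, 0 and 3 with shArf1-1 and 0, 0 and 0 with shArf1-2. It was counted in every shlucif library and was at or near 0 elsewhere: 115 summed counts against 3, or 76.6-fold lower (95% counting interval 25.6 to 377), and at least 13.2-fold lower with shArf1-2, taking 3 counts in each of its libraries. Cdk6 is 1 of 185 genes of the table that have 20 counts or more in each shlucif library and 3 or fewer in any other. The macrophage and microglia genes share this pattern, and their part in the Cdk6 counts was not tested. Its relative Cdk4 was far more abundant, at 104, 100.2 and 102 FPKM with shlucif, and did not pass (log2 fold change 0.08 ± 0.05, edgeR adjusted p = 0.156).

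Cdc14a, a phosphatase that opposes the mitotic kinases, had the highest log2 fold change in this role (log2 fold change 0.58 ± 0.15, edgeR adjusted p = 0.00212) at a low level, 0.926, 0.810 and 0.666 FPKM with shlucif. The next genes were chosen after their values were seen. Plk1, a kinase of mitotic entry and spindle assembly, rose (log2 fold change 0.52 ± 0.05, edgeR adjusted p = 9.07e-08), as did Cdk7, the partner of Ccnh (log2 fold change 0.49 ± 0.08, edgeR adjusted p = 1.47e-05), and Cdc25c, which activates Cdk1 (log2 fold change 0.39 ± 0.10, edgeR adjusted p = 0.00266). Cdk2, the kinase of cyclins E and A, fell (log2 fold change -0.38 ± 0.07, edgeR adjusted p = 0.000102). So did Pkmyt1, which inhibits Cdk1 (log2 fold change -0.43 ± 0.07, edgeR adjusted p = 4.7e-05), and Cdc14b (log2 fold change -0.89 ± 0.16, edgeR adjusted p = 6.37e-05). The libraries of these 6 genes did not overlap between Arf1-deficient and shlucif. Among all tested genes, 32.5% lay fully above shlucif and 26.7% fully below it. Plk1 shares 6.56% of its 50-mers with other genes. Cdk1 rose by 0.14 on the log2 scale (edgeR adjusted p = 0.0244), but not without shlucif replicate 1 or 2 (0.106 and 0.0796). Cdc25a and Cdc25b, phosphatases that activate Cdk2 and Cdk1, differed between the hairpins in opposite directions: Cdc25a, which rose in the pooled comparison (0.47, adjusted p = 0.00963), was lower with shArf1-2 (-0.47, edgeR adjusted p = 1.03e-05) and Cdc25b higher (0.34, edgeR adjusted p = 0.000109).

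In the RB and E2F group, 4 of 10 rose (40.0%; 31.6% of all tested genes), 3 fell (30%; 32.9% of all) and 3 did not pass; library size scaling gave 4 and 2 (36.6% and 29.1% of all). The median was -0.03, and 0.03 under library size scaling. E2f3, an activator of S phase genes, was at 9.06, 9.10 and 9.73 FPKM with shlucif, 20.03, 20.2 and 20.7 with shArf1-1 and 15.96, 15.2 and 16.3 with shArf1-2. The 3 groups stood apart in full, with shArf1-1 highest and shlucif lowest (log2 fold change 0.90 ± 0.11, edgeR adjusted p = 2.35e-06; between hairpins -0.38, adjusted p = 5.36e-05). Rb1, the retinoblastoma protein that restrains E2F, fell with each hairpin (log2 fold change -0.63 ± 0.10, edgeR adjusted p = 2.44e-05) and had no overlap with shlucif. Tfdp1, the DNA-binding partner of E2F proteins, rose (log2 fold change 0.66 ± 0.05, edgeR adjusted p = 6.97e-10), and Tfdp2, its close relative, fell (log2 fold change -0.51 ± 0.08, edgeR adjusted p = 1.73e-05). The other genes that passed were E2f4 (0.22, adjusted p = 0.00518) and E2f2 (0.15, adjusted p = 0.0189), which rose, E2f2 not without shlucif replicate 3 (0.0713), and Rbl2 (-0.25, adjusted p = 0.0489 in edgeR), a relative of Rb1, which was lower. Rbl2 did not pass in 12 of 19 alternatives: adjusted p was 0.143 under library size scaling, 0.170 and 0.172 in limma on FPKM, and up to 0.244 without 1 library. These 5 were chosen after their values were seen, and 16.8% of the 50-mers of Tfdp1 are shared. E2f1 was lower with shArf1-2 than with shlucif (-0.22, adjusted p = 0.00195 in edgeR) and about level with shArf1-1 (0.01, adjusted p = 0.879). The difference between hairpins gave -0.23 (adjusted p = 0.00794), and 0.0573 and 0.0601 as edgeR adjusted p without shArf1-1 replicate 1 or shArf1-2 replicate 2.

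Some of the genes that license and fire replication origins separated the hairpins from each other, but no Orc gene passed that test. All 6 Mcm genes, which encode the replicative helicase, were lower with shArf1-2 than with shArf1-1, by a median of -0.37 on the log2 scale. This held under every scaling tried. In this role 9 of 17 genes were lower with shArf1-2 than with shArf1-1 (52.9%), against 7.46% of all tested genes; scalings gave 8 or 9 (4.83% to 7.46% of all). Over all members, 20 of 115 were lower with shArf1-2 (17.4%; 7.46% of all) and 7 were higher (6.09%; 6.98% of all), among them Ccnd2, whose fit rests on counts near 0. The 7 became 4 without shArf1-1 replicate 1, and also 4 without shArf1-2 replicate 1, where 4.50% and 4.72% of all tested genes were higher.

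Mcm2 was at 58.7, 55.4 and 53.8 FPKM with shlucif, 58.9, 63.1 and 57.1 with shArf1-1 and 47.4, 43.8 and 48.5 with shArf1-2. Mcm3 was at 68.7, 69.3 and 70.7 FPKM with shlucif, 68.4, 74.8 and 71.4 with shArf1-1 and 55.9, 55.2 and 57.6 with shArf1-2, and Mcm4 at 37.9, 41.7 and 38.7 FPKM with shlucif, 41.4, 41.4 and 41.7 with shArf1-1 and 30.5, 29.9 and 31.6 with shArf1-2. For these 3 genes shArf1-1 overlapped or adjoined shlucif, and each shArf1-2 library lay below all others. Mcm5 was at 64.5, 59.4 and 57.2 FPKM with shlucif, 73.4, 76.1 and 68.4 with shArf1-1 and 52.9, 50.3 and 55.9 with shArf1-2. Mcm6 stood at 54.1, 55.0 and 50.6 FPKM with shlucif, 55.8, 56.3 and 59.2 with shArf1-1 and 47.1, 44.8 and 47.3 with shArf1-2, with the same order of shArf1-2 below the rest. Mcm7 was at 46.8, 42.4 and 42.2 FPKM with shlucif, 66.9, 66.8 and 66.2 with shArf1-1 and 52.6, 53.0 and 53.5 with shArf1-2. For Mcm7 both hairpin groups lay above shlucif, and shArf1-2 lay between shArf1-1 and shlucif.

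The test of the hairpin difference gave -0.38 for Mcm2 (edgeR adjusted p = 8.03e-06), -0.36 for Mcm3 (4.23e-06), -0.45 for Mcm4 (6.06e-07), -0.47 for Mcm5 (5.25e-07), -0.32 for Mcm6 (4.51e-05) and -0.35 for Mcm7 (1.21e-05). Against shlucif, 5 Mcm genes fell with shArf1-2 (83.3%, against 32.6% of all tested genes), with log2 fold changes from -0.43 (Mcm4) to -0.26 (Mcm5). Mcm7 rose with shArf1-2 (0.20, adjusted p = 0.000983 in edgeR), as did 30.9% of all tested genes. With shArf1-1, Mcm5 (0.21, adjusted p = 0.00159) and Mcm7 (0.55, adjusted p = 2.31e-11) rose (33.3%, against 33.1% of all), and the other 4 ranged from -0.01 to 0.05. With both hairpins pooled, Mcm7 passed the test (log2 fold change 0.39 ± 0.10, edgeR adjusted p = 0.00323), and the other 5 gave -0.19 to -0.01, of which 1 turns positive under library size scaling. Mcm7 shares 18.1% of its 50-mers, chiefly with Gm5487, and overlaps exons of Ap4m1 and Cops6 on the opposite strand, so its level is uncertain.

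Pcna, the sliding clamp of the replication fork, had the same order between hairpins at 121, 116 and 113 FPKM with shlucif, 132, 132 and 119 with shArf1-1 and 101, 98.7 and 104 with shArf1-2. All shArf1-2 libraries lay below all others (-0.35 between hairpins, edgeR adjusted p = 1.55e-05), with 19.1% of its 50-mers shared, chiefly with the pseudogene Pcna-ps2. Cdc6, which loads the Mcm helicase onto origins, was at 6.74, 8.10 and 7.39 FPKM with shlucif, 12.8, 11.5 and 14.5 with shArf1-1 and 8.27, 8.59 and 9.52 with shArf1-2. It was highest with shArf1-1, and shArf1-2 lay just above shlucif (-0.58 between hairpins, edgeR adjusted p = 7e-06). Its pooled rise (log2 fold change 0.49 ± 0.19, edgeR adjusted p = 0.0455) was lost without shlucif replicate 1, 2 or 3 (edgeR adjusted p = 0.148, 0.0711 and 0.108) and without shArf1-1 replicate 1 or 2 (0.0731 and 0.0679), and the replicate block and no filter on low counts gave 0.0691 and 0.0854.

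**Figure D3:**
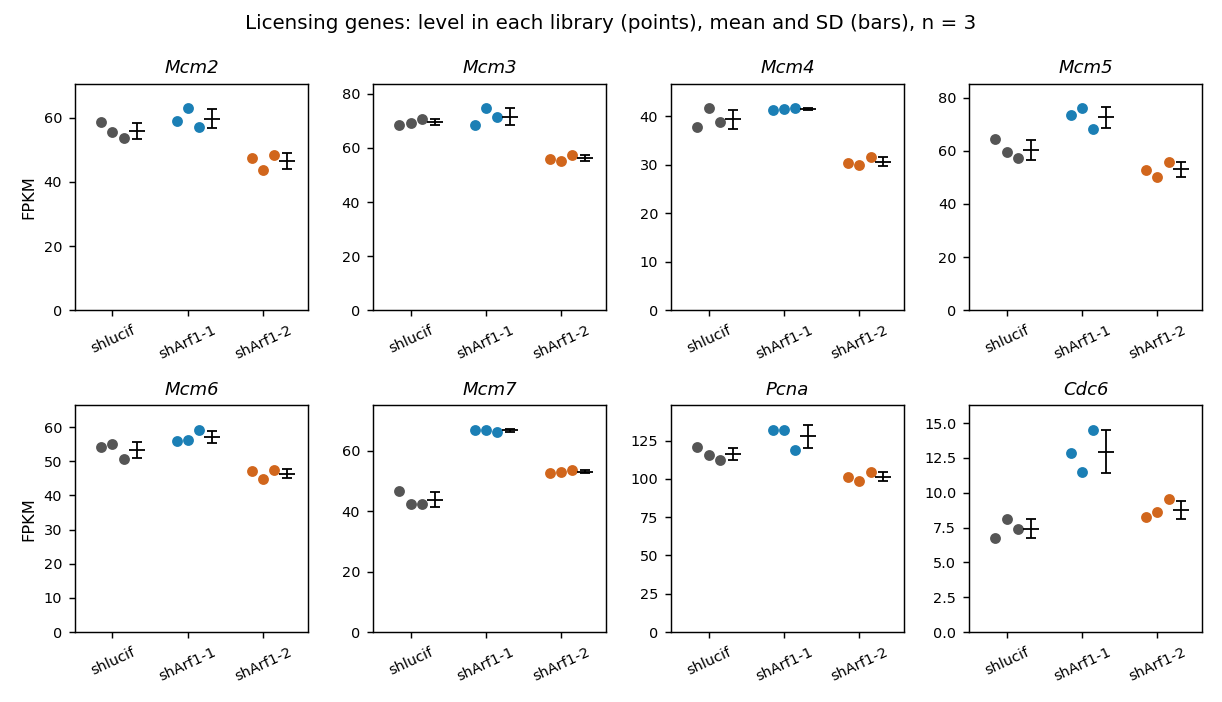
FPKM in each library of the Mcm genes, Pcna and Cdc6, by hairpin group (points), with mean and SD (bars). Mcm2 to Mcm6 and Pcna are lowest in the shArf1-2 libraries.

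Orc genes differed between the hairpins by -0.41 (Orc1) to 0.24 (Orc4) on the log2 scale, with edgeR adjusted p of 0.0952 (Orc3) or more. Of 6, 3 rose in Arf1-deficient cells (50%; 31.6% of all tested genes) and 3 did not pass. DESeq2 gave 3 higher (30.7% of all) and 1, Orc4, lower (33.4% of all). Orc2, a core subunit of the origin recognition complex, was at 8.91, 10.2 and 9.36 FPKM with shlucif, 16.7, 14.4 and 18.4 with shArf1-1 and 15.7, 16.6 and 15.6 with shArf1-2. Both hairpin groups lay above shlucif and overlapped each other (log2 fold change 0.71 ± 0.08, edgeR adjusted p = 2.58e-07). Orc5, another subunit, rose from a low level (log2 fold change 0.59 ± 0.10, edgeR adjusted p = 6.2e-05). Orc6, which is less tightly bound to the complex, rose by 0.18 (adjusted p = 0.0236 in edgeR), but not without shlucif replicate 2 or 3 (edgeR adjusted p = 0.0756 and 0.0759). Cdc7, the kinase that fires loaded origins, fell (log2 fold change -0.37 ± 0.07, edgeR adjusted p = 0.000103). Its activator Dbf4 did not pass (log2 fold change 0.14 ± 0.08, edgeR adjusted p = 0.135). Cdc45, a part of the active helicase chosen after its values were seen, fell (log2 fold change -0.35 ± 0.08, edgeR adjusted p = 0.000532). Exons of Orc2 and Orc6 overlap those of Nif3l1 and Vps35 on the opposite strand. Over the 17 genes of this role, 5 rose in the pooled comparison (29.4%; 31.6% of all tested genes) and 2 fell (11.8%; 32.9% of all). With shArf1-1, 6 rose (35.3%; 33.1% of all) and 3 fell (17.6%; 34.4% of all), or 8 and 3 under library size scaling (37.1% and 31.3% of all). In this role 3 were higher (17.6%; 30.9% of all tested genes) and 8 lower (47.1%; 32.6% of all) with shArf1-2 than with shlucif, and 6 were higher and 8 lower under library size scaling (36.5% and 28.1% of all).

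Genes of the mitotic checkpoint and of sister chromatid separation were mostly higher. Of 10 tested, 7 rose (70.0%; 31.6% of all tested genes), 1 fell (10%; 32.9% of all) and 2 did not pass, with a median log2 fold change of 0.22 and 9 positive values under every scaling tried. Under library size scaling 9 rose and 1 fell (36.6% and 29.1% of all). Mad1l1 (Mad1), which recruits Mad2 to unattached kinetochores, was at 12.8, 10.1 and 11.6 FPKM with shlucif, 26.1, 28.1 and 25.04 with shArf1-1 and 26.2, 24.9 and 25.8 with shArf1-2. Levels in all Arf1-deficient libraries were far above those with shlucif, and the hairpins overlapped (log2 fold change 1.11 ± 0.08, edgeR adjusted p = 3.7e-10). Exons of Mad1l1 and of Gm16121 overlap on opposite strands. Mad2l1 (Mad2), the inhibitor of Cdc20, rose (log2 fold change 0.44 ± 0.07, edgeR adjusted p = 1.34e-05), as did its target Cdc20, the activator of the anaphase promoting complex (log2 fold change 0.30 ± 0.06, edgeR adjusted p = 0.000168). Cdc20 shares 10.4% of its 50-mers and overlaps Elovl1 on the opposite strand.

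Smaller rises were seen for Ttk (Mps1), the kinase at the head of the checkpoint (log2 fold change 0.27 ± 0.08, edgeR adjusted p = 0.00595), and for Pttg1 (securin), which holds separase inactive (log2 fold change 0.27 ± 0.07, edgeR adjusted p = 0.00263). Bub1b (BubR1), a subunit of the checkpoint complex, rose by 0.17 (adjusted p = 0.0067 in edgeR). Its partner Bub3 rose by 0.16 (edgeR adjusted p = 0.0106), but not without shlucif replicate 2 or 3 (edgeR adjusted p = 0.0647 and 0.0523). In each of these 7 genes, named because they passed, every Arf1-deficient library lay above every shlucif library, as for 32.5% of all tested genes. Bub1 (0.14, adjusted p = 0.0836) and Espl1, which encodes separase (0.11, adjusted p = 0.111), did not pass edgeR's test. Mad2l2, a relative of Mad2 that also serves DNA repair, fell (log2 fold change -0.45 ± 0.07, edgeR adjusted p = 1.4e-05), with no overlap between groups. Between the hairpins the 10 genes differed by -0.13 to 0.14 on the log2 scale, with edgeR adjusted p of 0.0632 (Espl1) or more. Espl1 was higher with shArf1-2 in 5 alternatives: library size and upper quartile scaling (0.0300 and 0.0320), the replicate block (0.0483), and without shArf1-1 replicate 2 (0.0256) or shArf1-2 replicate 3 (0.0439).

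Of the anaphase promoting complex, the ubiquitin ligase that ends mitosis, 6 of 13 subunits and activators rose (46.2%; 31.6% of all tested genes) and 1 fell (7.69%; 32.9% of all). DESeq2 and upper quartile scaling gave 6 and 2 (30.7% and 30.9% of all higher, 33.4% lower in both). Library size scaling gave 7 and 1 (36.6% and 29.1% of all). Anapc13, a small subunit, rose (log2 fold change 0.70 ± 0.16, edgeR adjusted p = 0.000759) from 2.78, 3.14 and 2.69 FPKM with shlucif. Cdc27, Cdc23 and Cdc16, scaffold subunits chosen after their values were seen, rose by 0.42, 0.40 and 0.34 (edgeR adjusted p = 3.47e-06, 3.33e-05 and 1.3e-05). Anapc2, its cullin, fell (log2 fold change -0.32 ± 0.05, edgeR adjusted p = 3.52e-05). Anapc4 and Anapc5 also rose, by 0.23 and 0.14 (edgeR adjusted p = 0.00404 and 0.0264). Anapc5 did not pass without shlucif replicate 2 or 3 (edgeR adjusted p = 0.139 and 0.0549) or shArf1-1 replicate 1 or 2 (0.0542 and 0.0534). For all 7 of these genes, which are those that passed the test, the Arf1-deficient libraries stood apart from shlucif. Of all tested genes, 32.5% lay fully above shlucif and 26.7% fully below it.

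Of the SCF ubiquitin ligase, which marks G1 and S phase regulators for degradation, 3 of 4 genes rose (75.0%; 31.6% of all tested genes) and 1 fell (25%; 32.9% of all). Cul1, its scaffold, was at 11.4, 10.6 and 9.93 FPKM with shlucif, 22.1, 21.3 and 23.0 with shArf1-1 and 20.5, 19.7 and 20.6 with shArf1-2. Arf1-deficient libraries were all above shlucif, by far more than the spread within groups (log2 fold change 0.93 ± 0.07, edgeR adjusted p = 1.88e-09). Exons of A930035D04Rik lie opposite those of Cul1. Skp1 and Rbx1, its adaptor and RING subunit, rose by 0.30 and 0.32 (edgeR adjusted p = 8.3e-05 and 5.78e-05; named after their values were seen). Skp2, the receptor that leads p27 to degradation, fell (log2 fold change -0.30 ± 0.07, edgeR adjusted p = 0.000628), with every Arf1-deficient library below shlucif.

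Of cohesin, the ring that holds sister chromatids together, 3 of 5 tested genes rose (60.0%; 31.6% of all tested genes) and 2 fell (40.0%; 32.9% of all). Stag1 was at 2.75, 3.04 and 2.497 FPKM with shlucif, 6.23, 5.57 and 6.79 with shArf1-1 and 6.06, 5.66 and 6.09 with shArf1-2. Both hairpin groups were above shlucif in every library and overlapped each other (log2 fold change 1.07 ± 0.08, edgeR adjusted p = 1.35e-09). Its alternative in the ring, Stag2, fell (log2 fold change -0.23 ± 0.06, edgeR adjusted p = 0.00183), also without overlap. Smc3 (0.28, adjusted p = 0.000243) and Rad21 (0.14, adjusted p = 0.0205) rose in edgeR's test and Smc1a fell (-0.18, adjusted p = 0.00171); these 3 were named after their values were seen. Rad21 did not pass without shlucif replicate 1, 2 or 3 (edgeR adjusted p = 0.0696, 0.0550 and 0.0519). In FPKM with shlucif, Stag2 at 12.6, 13.8 and 13.7 was more abundant per length than Stag1.

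In the DNA damage checkpoint group, 2 of 10 rose (20%; 31.6% of all tested genes), 2 fell (20%; 32.9% of all) and 6 did not pass, and 4 rose and 2 fell under library size scaling (36.6% and 29.1% of all). Gadd45a, a stress response gene that p53 induces, was at 3.66, 4.02 and 3.58 FPKM with shlucif, 2.81, 2.18 and 1.35 with shArf1-1 and 1.70, 2.27 and 2.04 with shArf1-2. Arf1-deficient libraries were all below shlucif, with a wide spread in shArf1-1 (log2 fold change -0.94 ± 0.20, edgeR adjusted p = 0.000416). Gadd45b, a relative, was at 15.7, 14.7 and 15.6 FPKM with shlucif, 5.78, 7.82 and 6.50 with shArf1-1 and 12.1, 12.9 and 12.9 with shArf1-2. It was lowest with shArf1-1, and shArf1-2 lay between (log2 fold change -0.72 ± 0.25, edgeR adjusted p = 0.0296; -1.25 with shArf1-1, -0.35 with shArf1-2, difference 0.90, adjusted p = 9e-07). The pooled fall of Gadd45b was lost without shlucif replicate 1, 2 or 3 (edgeR adjusted p = 0.0874, 0.0590 and 0.0790), and the replicate block and no filter on low counts gave 0.0574 and 0.0631.

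Gadd45g, named after its values were seen, went the other way and rose (log2 fold change 0.33 ± 0.09, edgeR adjusted p = 0.00387). Mdm2, the ubiquitin ligase of p53, rose (log2 fold change 0.33 ± 0.05, edgeR adjusted p = 2.05e-05) with no overlap between groups, and Trp53, which encodes p53, did not pass (log2 fold change 0.12 ± 0.05, edgeR adjusted p = 0.0656). Chek1, the checkpoint kinase of stalled replication, rose with shArf1-1 (log2 fold change 0.50 ± 0.12, edgeR adjusted p = 0.000525) and not with shArf1-2 (log2 fold change -0.04 ± 0.13, edgeR adjusted p = 0.796), and the hairpins differed by -0.54 (adjusted p = 0.00201 in edgeR). Atm, the kinase that responds to double-strand breaks, was likewise lower with shArf1-2 than with shArf1-1 (-0.52 between hairpins, edgeR adjusted p = 1.51e-05).

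Among 14-3-3 proteins, which bind phosphorylated Cdc25 and other partners, 3 of 7 rose (42.9%; 31.6% of all tested genes) and 1 fell (14.3%; 32.9% of all); under library size scaling 3 rose (36.6% of all) and the fall of Ywhaz did not pass. Ywhab rose (log2 fold change 0.42 ± 0.06, edgeR adjusted p = 3.67e-06), and by less Ywhah (0.14, edgeR adjusted p = 0.0255) and Ywhag (0.12, adjusted p = 0.0301), both named after their values were seen. Without shlucif replicate 2 or 3, Ywhah (edgeR adjusted p = 0.112 and 0.0731) and Ywhag (0.146 and 0.116) did not pass, nor did Ywhag without shArf1-1 replicate 1 or 2 (0.0516 and 0.0524) or shArf1-2 replicate 1 (0.0502). Ywhaz, the most abundant member per length at 172, 176 and 174 FPKM with shlucif, fell by little (log2 fold change -0.14 ± 0.04, edgeR adjusted p = 0.00735); the adjusted p was 0.0962 with library size scaling and 0.0771 or 0.0755 in limma on FPKM. Ywhaz shares 15.2% of its 50-mers with other genes and Ywhah 8.62%, so both levels are uncertain.

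The growth factor group, which feeds into the G1 decision, had 3 of 12 higher (25%; 31.6% of all tested genes), 3 lower (25%; 32.9% of all) and 6 that did not pass; library size scaling gave 5 and 3 (36.6% and 29.1% of all). Tgfb1, a ligand that slows the cycle in many cell types, was at 14.1, 15.2 and 15.3 FPKM with shlucif, 4.66, 4.93 and 4.41 with shArf1-1 and 5.29, 4.61 and 5.28 with shArf1-2. Levels in all Arf1-deficient libraries were far below shlucif, and the hairpins overlapped (log2 fold change -1.68 ± 0.07, edgeR adjusted p = 4.63e-13). Smad3, which carries the TGF-β signal to the nucleus and was chosen after its values were seen, fell too (log2 fold change -1.36 ± 0.13, edgeR adjusted p = 5.5e-08), more with shArf1-1 than with shArf1-2 (difference 0.51, edgeR adjusted p = 0.00199). The macrophage and microglia genes were lower in the same libraries, and their part in the Tgfb1 and Smad3 levels was not tested. Myc, a transcription factor that promotes entry into S phase, was at 41.3, 42.3 and 38.5 FPKM with shlucif, 83.5, 80.1 and 80.9 with shArf1-1 and 73.8, 71.4 and 74.4 with shArf1-2. All Arf1-deficient libraries lay above shlucif, and shArf1-1 above shArf1-2 (log2 fold change 0.86 ± 0.06, edgeR adjusted p = 7.41e-10). Named after their values were seen, Crebbp (0.42, adjusted p = 0.000153), a coactivator, and Smad2 (0.38, adjusted p = 4.03e-05) rose in edgeR's test, and Zbtb17 (Miz1), a partner of Myc, fell (-0.27, adjusted p = 0.00163).

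Longer lists of genes known to peak in 1 phase, which reach beyond the annotation, were counted in the same way. Of 54 genes of G2 and M, 36 rose in Arf1-deficient cells (66.7%; 31.6% of all tested genes) and 5 fell (9.26%; 32.9% of all), with a median log2 fold change of 0.28. Scalings gave 35 to 41 higher (30.7% to 36.6% of all) and 2 to 5 lower (29.0% to 33.4%). Of the 48 that are not members, 31 rose, among them Kif11, a spindle motor (log2 fold change 0.77 ± 0.07, edgeR adjusted p = 1.2e-08), Nusap1, a microtubule-binding protein (log2 fold change 0.57 ± 0.06, edgeR adjusted p = 2.69e-07), and Aurka, a centrosome kinase (log2 fold change 0.55 ± 0.06, edgeR adjusted p = 1.49e-07). The 5 that fell were Hjurp, which loads centromeric histone (log2 fold change -0.29 ± 0.05, edgeR adjusted p = 5.22e-05), and Psrc1, Lbr, Rangap1 and Aurkb (-0.30, -0.24, -0.16 and -0.16). Psrc1, Rangap1 and Aurkb did not pass under library size scaling (edgeR adjusted p = 0.0639, 0.125 and 0.144) or in limma on FPKM. These examples were chosen after their values were seen.

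Of 43 genes that peak at G1/S, 25 were lower with shArf1-2 than with shArf1-1 (58.1%; 7.46% of all) and 1 was higher, Cdca7 (0.57, edgeR adjusted p = 0.006). The median difference was -0.25, and 20 to 25 were lower under the scalings tried (4.83% to 7.46% of all). Without the members, 18 of 35 were lower and 1 higher. Against shlucif, 20 rose (46.5%; 33.1% of all) and 9 fell (20.9%; 34.4% of all) with shArf1-1. With shArf1-2, 10 rose (23.3%; 30.9% of all) and 19 fell (44.2%; 32.6% of all), or 14 and 15 under library size scaling (36.5% and 28.1% of all). Rrm2, a subunit of ribonucleotide reductase, had 39.3, 40.9 and 36.7 FPKM with shlucif, 54.6, 53.2 and 62.4 with shArf1-1 and 34.8, 34.1 and 37.0 with shArf1-2. The shArf1-1 libraries were the highest, and those with shArf1-2 overlapped shlucif (difference -0.70, edgeR adjusted p = 1.29e-09). E2f8, a repressor of the E2F family (-0.65, adjusted p = 5.39e-07), and Ung, which removes uracil from DNA (-0.60, adjusted p = 7.01e-05), were also lower with shArf1-2 than with shArf1-1 in edgeR's test; these were chosen after their values were seen.

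A further list held 11 genes of the DREAM and MMB complexes, which repress and activate cell cycle promoters. Of the 10 found in the table, 5 rose (50%; 31.6% of all tested genes) and 3 fell (30%; 32.9% of all); library size scaling gave 5 and 2 (36.6% and 29.1% of all). Foxm1, an activator of G2 and M genes, rose (log2 fold change 0.65 ± 0.08, edgeR adjusted p = 5.36e-07), and so did Mybl2 (log2 fold change 0.36 ± 0.06, edgeR adjusted p = 5.18e-05). Lin9 rose (log2 fold change 0.50 ± 0.10, edgeR adjusted p = 0.000148), while Lin52 and Lin37, subunits of the same core, fell (-0.63 and -0.38, edgeR adjusted p = 9.8e-05 and 0.000738). E2f4, Tfdp1 and Rbl2, given above, are the others that passed; all were named after their values were seen.

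Promoters were read from RefSeq (build GRCm38.p6, 250 bases before to 50 after the start), where 98 of the 121 members were found. An E2F element (TTTCCCGC, TTTGGCGC, TTTCGCGC or TTTGGCGG, either strand) occurred in 21 of 98 (21.4%), against 2.70% of 27025 genes. It was found in 4 of 5 Mcm genes, in 8 of 16 genes for origins and in 8 of the 17 members found that were lower with shArf1-2 than with shArf1-1 (47.1%). The CHR element (TTTGAA or TTCGAA, either strand) occurred in 28.6% of members and 21.7% of all genes, and in 6 of 10 mitotic checkpoint genes. CCAAT occurred in 59.2% of members, 41.1% of all genes and 7 of those 10. A match is a description of these letters and not a bound site.

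The stretches below show the E2F matches of the Mcm genes, with matches in capitals, because these genes were lower together with shArf1-2 than with shArf1-1. Mcm2, which was lower too, holds no E2F match, and Mcm4 was not found among the promoters. They lie at chr1:20820266-20820294 (minus strand) for Mcm3, chr8:75109330-75109393 (plus) for Mcm5, chr1:128359778-128359841 and chr1:128359719-128359778 (minus) for Mcm6 and chr5:138172030-138172059 and chr5:138171849-138171878 (minus) for Mcm7. By GENCODE the Mcm3 and Mcm7 stretches lie within an exon, and those of Mcm5 and Mcm6 lie outside exons.
Mcm3: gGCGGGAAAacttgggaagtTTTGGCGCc
Mcm5: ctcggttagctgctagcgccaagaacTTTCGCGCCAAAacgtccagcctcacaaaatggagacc
Mcm6: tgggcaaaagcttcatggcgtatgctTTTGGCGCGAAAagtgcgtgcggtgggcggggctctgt
Mcm6: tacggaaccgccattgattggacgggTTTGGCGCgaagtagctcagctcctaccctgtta
Mcm7: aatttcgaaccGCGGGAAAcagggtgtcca
Mcm7: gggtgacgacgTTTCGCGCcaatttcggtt

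CHR matches of the mitotic checkpoint genes are shown in the same way, because most of these genes were higher in Arf1-deficient cells. They lie at chr2:127831828-127831857 (minus strand) for Bub1, chr2:118597997-118598054 and chr2:118598239-118598260 (plus) for Bub1b, chr7:131560315-131560344 (plus) for Bub3, chr4:118437330-118437387 (minus) for Cdc20, chr15:102296254-102296283 (plus) for Espl1 and chr9:83834684-83834713 (plus) for Ttk. The Bub1 and Bub3 stretches and the second of Bub1b lie within an exon, the first of Bub1b lies outside, and those of Cdc20, Espl1 and Ttk run across an exon border. Bub1 and Espl1, which did not pass the test, hold a CHR match. Mad1l1, Mad2l1 and Pttg1, which rose, hold none.
Bub1: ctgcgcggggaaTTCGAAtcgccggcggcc
Bub1b: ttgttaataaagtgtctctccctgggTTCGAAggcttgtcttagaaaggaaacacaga
Bub1b: agagacgttaaaTTTGAAactt
Bub3: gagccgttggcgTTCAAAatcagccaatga
Cdc20: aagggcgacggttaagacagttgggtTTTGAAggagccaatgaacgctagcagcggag
Espl1: tcactagggataTTTGAAaggaggtgctgg
Ttk: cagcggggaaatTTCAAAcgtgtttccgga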

How the data were processed

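N2a cells with hairpins against luciferase (shlucif) or Arf1 (shArf1-1, shArf1-2) were measured in 9 libraries, 3 per group. The deposited table gives counts per gene and FPKM by the authors, per kilobase of the gene length listed in bases; the labels describe oligo(dT) enriched mRNA and name mm 10, but no aligner, counting tool or strand. FPKM equalled count per length and total within 0.1%, and 8 broken lines were joined. Its columns named shArf2 were taken as shArf1-2, since the series lists no other hairpin. Totals were 13786986, 13381570 and 13631004 (shlucif), 12516668, 11182479 and 15594615 (shArf1-1) and 14659400, 13463280 and 14159344 (shArf1-2).

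Counts were filtered (filterByExpr), scaled by TMM and tested in edgeR 4.0.16 (glmQLFit, robust; glmQLFTest) under R 4.3.3, with Benjamini-Hochberg adjustment over 12448 genes and a threshold of 0.05. A 2-group fit gave Arf1-deficient against shlucif, and a 3-group fit gave each hairpin and their difference (shArf1-2 minus shArf1-1). Errors after ± are standard errors. Alternatives were DESeq2 1.42.0, limma 3.58.1 on FPKM, other scalings, filters and groupings, a replicate block and leaving out each library. Shared 50-mers and exon overlaps came from GENCODE; sharing of 5% or more, in 10 members, makes a level uncertain, and 40 members have an exon opposite another gene's exon.

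Named by rule were cyclins, CDK inhibitors, Mcm, Orc and mitotic checkpoint genes past the threshold, and among genes past it the largest rise and fall of each other role and the 5 largest hairpin differences. Among the genes named by rule, the 12 with the largest changes at 1 FPKM or more are given in every library, as are some others. Other genes were named with their values known. The members and lists were chosen with earlier results of these data known.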

Additional observations from a re-analysis of the deposited data

Results flagged for a closer look

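Each gene here differed between shArf1-2 and shArf1-1 by edgeR's test of that difference; values are shArf1-2 minus shArf1-1 on the log2 scale with the edgeR adjusted p. Groups of 3 libraries were not tested for a library that stands apart. Each hairpin is 1 sequence, and the remaining Arf1 level also differed, so these cannot be told apart.

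Lower with shArf1-2 were the replication genes Mcm2 (-0.38, adjusted p = 8.03e-06), Mcm3 (-0.36, adjusted p = 4.23e-06), Mcm4 (-0.45, adjusted p = 6.06e-07), Mcm5 (-0.47, adjusted p = 5.25e-07), Mcm6 (-0.32, adjusted p = 4.51e-05), Mcm7 (-0.35, adjusted p = 1.21e-05), Pcna (-0.35, adjusted p = 1.55e-05) and Cdc6 (-0.58, adjusted p = 7e-06). Cdc45 was lower as well (-0.21, adjusted p = 0.0407), but not without shlucif replicate 2 (0.0505), shArf1-1 replicate 1 or 2 (0.178 and 0.110) or shArf1-2 replicate 1, 2 or 3 (0.0711, 0.138 and 0.101). Among cyclins and CDK inhibitors, Ccnd1 was lower (-0.80, adjusted p = 3.34e-13). So was Cdkn1a (-0.17, adjusted p = 0.0453), but not without shlucif replicate 2 or 3 (0.0540 and 0.0579), shArf1-1 replicate 1 or 3 (0.166 and 0.0718) or shArf1-2 replicate 1, 2 or 3 (0.143, 0.10 and 0.0966). Cdkn2c was lower (-0.31, adjusted p = 0.0311), but not without shArf1-1 replicate 1 or 2 (0.112 and 0.0601) or shArf1-2 replicate 1 or 3 (0.0545 and 0.166).

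Of the other roles, Cdc25a (-0.47, adjusted p = 1.03e-05), Chek1 (-0.54, adjusted p = 0.00201), Atm (-0.52, adjusted p = 1.51e-05), E2f3 (-0.38, adjusted p = 5.36e-05) and Gsk3b (-0.28, adjusted p = 0.000509) were lower with shArf1-2. E2f1 was lower (-0.23, adjusted p = 0.00794), but not without shArf1-1 replicate 1 (0.0573) or shArf1-2 replicate 2 (0.0601). Myc was lower (-0.17, adjusted p = 0.0255), but not without shArf1-1 replicate 1 (0.123) or shArf1-2 replicate 1 or 2 (0.0640 and 0.126). Anapc13 was lower (-0.42, adjusted p = 0.0394), but not without shArf1-1 replicate 1 or 2 (0.0914 and 0.132) or shArf1-2 replicate 1 or 2 (0.140 and 0.152).

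Higher with shArf1-2 were Gadd45b (0.90, adjusted p = 9e-07), Smad3 (0.51, adjusted p = 0.00199), Cdc25b (0.34, adjusted p = 0.000109) and Rbl1 (0.28, adjusted p = 0.00788), the last a relative of Rb1. Ccnd2 also passed (4.40, edgeR adjusted p = 0.0416), but its fit rests on counts near 0. Cdc14a was higher (0.39, adjusted p = 0.0329), but not without shArf1-1 replicate 1 or 2 (0.117 and 0.0965) or shArf1-2 replicate 1 or 2 (0.0788 and 0.132). Smad2, a partner of Smad3, was higher (0.18, adjusted p = 0.0278), but not without shArf1-1 replicate 1 (0.138) or shArf1-2 replicate 1, 2 or 3 (0.0950, 0.0679 and 0.0735).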

How the results depend on the processing

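None of the 43 named fold changes and 26 hairpin differences changed direction under an alternative. The 26 leave out Ccnd2, whose hairpin difference also passed but rests on counts near 0. For Arf1-deficient against shlucif, 36 of 43 named genes kept direction and side of the threshold in every alternative (786 of 815 values). In the other 7, 28 values no longer passed and 1 newly did, Ccnd1 with the average of the hairpin contrasts. Ccnb2 no longer passed in 9 of its 19 alternatives, with adjusted p up to 0.183, Cdc6 in 7 (up to 0.148), Gadd45b in 5 (0.0874), Ywhaz in 3 (0.0962), Bub3 in 2 (0.0647) and Orc6 in 2 (0.0759). Of 26 hairpin differences, 18 passed in every alternative (444 of 494 values), and 50 values of the other 8 did not: Cdkn1a in 13 alternatives (up to 0.166), Cdc45 in 11 (0.178), Anapc13 in 7 (0.152), Cdc14a in 6 (0.138), Cdkn2c in 4 (0.166), Smad2 in 4 (0.138), Myc in 3 (0.126) and E2f1 in 2 (0.0601); the cause was not tested. Counts of members higher and lower in Arf1-deficient cells were 47 and 25, 38 to 49 and 23 to 27 without 1 library, and 45 to 58 and 23 to 34 over other settings. For shArf1-1 they were 52 and 28 (49 to 54 and 26 to 29; 51 to 58 and 26 to 29), for shArf1-2 44 and 33 (35 to 47 and 32 to 35; 40 to 59 and 30 to 34), and between hairpins 7 and 20 (4 to 7 and 14 to 21; 6 to 9 and 17 to 22). Requiring 1 log2 unit or more left 2 and 4, 4 and 5, 2 and 4, and 1 and 0 in the same order, since fewer genes reach it. The share of all tested genes at this limit is not given here, so these counts are not set against it. Fits on only the 6 libraries compared cannot apply to the pooled comparison. Under library size scaling the median of all genes was 0.07 on the log2 scale. With the replicate number as a block the counts were 45 and 23, 52 and 28, 45 and 34, and 7 and 22. Of all tested genes, 30.6% and 32.1%, 33.2% and 34.5%, 31.0% and 32.8%, and 7.08% and 7.46% passed in the same order. Same-number correlations of residuals ran from -0.0822 to 0.0941 (mean 0.0070). No different-number pairs were set beside them, so whether libraries with the same number shared a culture or preparation was not settled. Depth limits Ccnd2 and Cdk6, whose Arf1-deficient counts are at or near 0. The 6 untested members have counts that are low or 0, and whether depth is the reason was not tested. Of 44 other genes named in the pooled comparison, 34 passed in every alternative; Rbl2 no longer passed in 12 of 19 (up to 0.244), and 9 others in 1 to 5.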
